A study of Mus musculus with 8 samples.

Results

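The 34 genes described here make, sense, move and export cholesterol. They were taken by name from the deposited table of 50686 genes measured by RNA-seq in the ventral hippocampus, and their symbols were mapped to Ensembl identifiers with the GENCODE M21 annotation of the mouse genome (GRCm38). The animals were 8 male C57BL/6J mice, 8 weeks old, and no transgene or mutant allele was involved. The vehicle group held 4 mice (replicates 1 to 4) and the corticosterone group held 4 mice (replicates 5 to 8), which received 3 mg/kg of corticosterone, the main glucocorticoid of rodents. All were killed 3 h after the injection, and each library came from a separate mouse. The comparison asks which transcripts differ at that time after a single injection.

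Brain cells make nearly all of the cholesterol of the brain themselves, because lipoproteins of the blood hardly pass the blood-brain barrier. The pathway runs from acetyl-CoA through mevalonate to squalene, and from lanosterol through a row of sterol intermediates to cholesterol. When sterols are low, SCAP escorts the SREBP transcription factors to the Golgi for cleavage, and they then switch on the genes of the pathway, while INSIG proteins hold the complex back when sterols are high. Oxysterols activate the nuclear receptors LXR alpha and LXR beta, which raise the genes of cholesterol efflux. Astrocytes load cholesterol onto apolipoprotein E, and neurons dispose of a surplus by hydroxylating it.

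The members fall into 5 roles: 7 enzymes from acetyl-CoA to farnesyl diphosphate, 11 enzymes from squalene to cholesterol, 5 genes of the SREBP system, 8 genes of LXR signaling and efflux, and 3 carriers of sterols within the cell. Counts that fell on genes ranged from 17492159 to 19931987 per library. Library 5 of the corticosterone group stood apart: it lay at -19.2 on the first principal component of all genes tested (33.7% of the variance), among 3 of the vehicle libraries (-24.8 to -8.33), whereas the other corticosterone libraries lay at 18.9 to 23.5. Vehicle library 4 lay between them at 5.11. Counts of calls, and the values of the genes that passed without library 5, are therefore given with and without it. *Fkbp5*, a classic glucocorticoid target, was higher in each of the 4 corticosterone libraries (3177 to 3511 normalized counts) than in any vehicle library (1709 to 2373), library 5 included (3186). Neither the labels nor the methods name a batch.

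The promoters of 5 members are printed because the data on these genes, or the elements the pathway is known for, are taken up again with the values. They are the 250 bases before the transcription start in RefSeq (GRCm38.p6), written 5′ to 3′ along the strand of the gene. Capitals mark matches on either strand to a loose form of the LXR element DR4 (GGTNA and GGTCA with 5 bases between them), TCACNCCAC (a sterol regulatory element that SREBP binds) or CCAAT (the NF-Y box, which often stands next to it). They come from chr4:53159896-53160145 on the minus strand for *Abca1*, chr11:60210472-60210721 on the minus strand for *Srebf1* (the more downstream of its annotated starts), chr8:105943403-105943652 on the minus strand for *Lcat*, chr13:119690101-119690350 on the plus strand for *Hmgcs1* and chr5:114444019-114444268 on the plus strand for *Mvk*.
Abca1: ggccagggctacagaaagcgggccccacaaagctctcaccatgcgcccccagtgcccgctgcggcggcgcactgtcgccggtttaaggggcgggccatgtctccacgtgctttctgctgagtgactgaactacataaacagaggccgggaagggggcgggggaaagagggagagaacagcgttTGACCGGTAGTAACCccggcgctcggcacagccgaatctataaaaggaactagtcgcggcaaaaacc
Srebf1: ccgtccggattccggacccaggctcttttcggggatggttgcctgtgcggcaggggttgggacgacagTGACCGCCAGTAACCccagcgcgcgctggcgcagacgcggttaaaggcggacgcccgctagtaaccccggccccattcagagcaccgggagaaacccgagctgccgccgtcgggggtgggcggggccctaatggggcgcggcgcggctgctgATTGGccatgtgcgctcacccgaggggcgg
Lcat: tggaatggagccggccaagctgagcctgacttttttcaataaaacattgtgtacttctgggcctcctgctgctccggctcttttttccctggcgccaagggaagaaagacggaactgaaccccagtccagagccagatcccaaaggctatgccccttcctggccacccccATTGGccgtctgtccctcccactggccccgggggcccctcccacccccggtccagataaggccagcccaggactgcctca
Hmgcs1: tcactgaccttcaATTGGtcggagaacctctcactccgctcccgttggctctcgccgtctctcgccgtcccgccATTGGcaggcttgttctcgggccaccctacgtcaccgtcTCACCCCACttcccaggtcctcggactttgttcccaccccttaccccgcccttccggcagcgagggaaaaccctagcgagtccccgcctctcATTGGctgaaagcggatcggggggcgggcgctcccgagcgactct
Mvk: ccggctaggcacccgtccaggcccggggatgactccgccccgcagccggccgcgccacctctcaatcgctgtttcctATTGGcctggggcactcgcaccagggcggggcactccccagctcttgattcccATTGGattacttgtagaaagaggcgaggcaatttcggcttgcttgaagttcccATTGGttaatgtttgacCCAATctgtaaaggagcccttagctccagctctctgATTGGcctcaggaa

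All of the 34 members were expressed above the filter on low counts and were tested. The levels of the 34 genes, as normalized counts per kilobase of annotated exons, spanned more than 3 orders of magnitude in the vehicle group. *Apoe*, the apolipoprotein of brain lipoproteins, was the highest at 11400.3 ± 1829 (SD, n = 4). *Hmgcs1*, which makes the precursor of mevalonate, was the next at 957 ± 69.6, and it was followed by *Cyp46a1*, the neuronal enzyme that hydroxylates cholesterol for export from the brain, at 833 ± 88.1. With the length of the longest transcript in place of all exons, this order turned (1269.5 for *Hmgcs1* and 1292 for *Cyp46a1*), and *Apoe* stayed the highest and *Fdps* the lowest. The transcription factor *Srebf2* stood at 581 ± 51.2, against 152 ± 22.1 for *Srebf1*. *Nr1h2* (LXR beta) stood at 238 ± 22.8 and *Nr1h3* (LXR alpha) at 14.7 ± 2.19, so that the beta form was the higher of the LXR transcripts in every library. The lowest member was *Fdps*, farnesyl diphosphate synthase, at 5.13 ± 1.54. Of the 33 pairs of neighbors in this order, 9 had vehicle values that did not overlap, and the ranges of the other 24 pairs overlapped. The genes of a pair were not compared within each library, so overlap does not show equal levels.

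**Figure D1:**
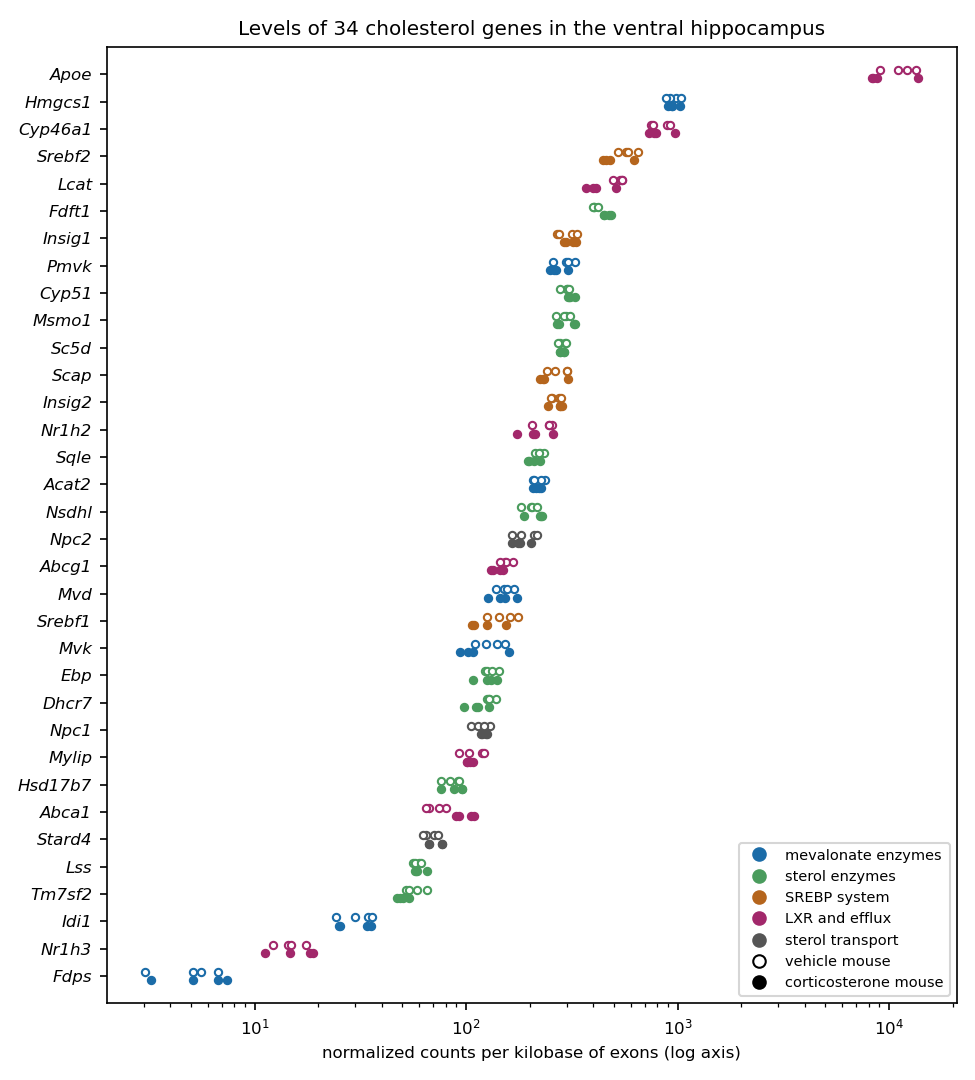
Normalized counts per kilobase of annotated exons (log axis) for the 34 genes in each mouse, with open circles for vehicle and filled circles for corticosterone, colored by role. *Apoe* is the highest gene in every mouse and *Fdps* the lowest, and the circles of both groups lie close together for most genes.

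The level of *Fdps* is uncertain. It rested on only 13 to 32 reads per library, and 26.7% of its exon bases are shared with *Gm43738*, a predicted gene on the same strand in which no read was counted. Reads on shared bases are set aside as ambiguous by the counting.

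No member passed the adjusted p value of 0.05 in the edgeR quasi-likelihood test (0 of 34). Among all 16018 genes tested the share that passed was 0.00624%, which was a single gene, *Fkbp5* (log2 fold change 0.76, adjusted p = 0.0481). At an unadjusted p under 0.05 there were 5 members (14.7%), 2 of them higher and 3 lower after corticosterone, where all genes tested gave 9.03% (4.51% higher and 4.52% lower). The higher members were *Abca1* and *Fdft1*, and the lower members were *Lcat*, *Srebf1* and *Dhcr7*. Values without overlap between the groups were found in 2 members, again *Abca1* and *Fdft1*, with a share of 3.66% among all genes tested (1.99% for higher values). The median log2 fold change of the 34 members was -0.03, with 13 positive and 21 negative values, beside a median of 0.0036 over all genes tested.

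**Figure D2:**
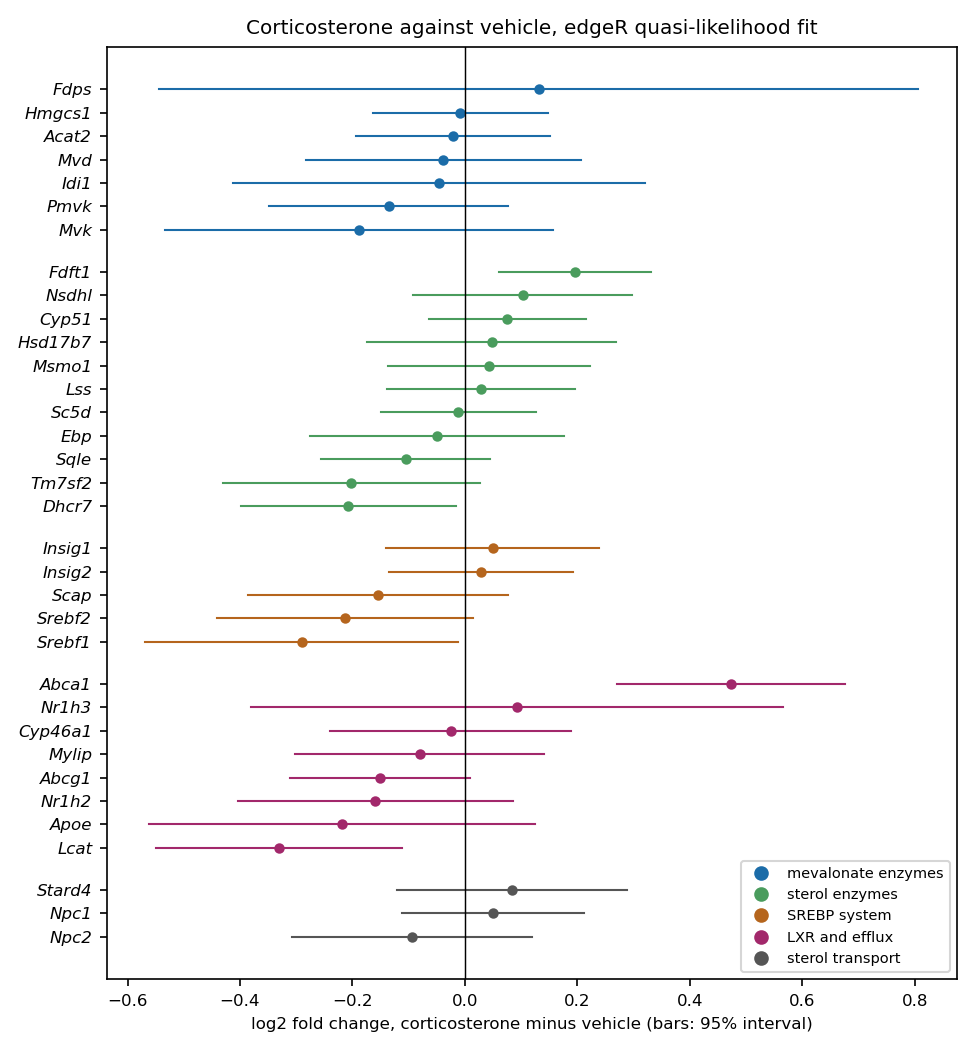
Log2 fold change (corticosterone minus vehicle) of each member in the edgeR fit, with its 95% interval, grouped and colored by role. The interval leaves out 0 for 5 genes, with *Abca1* and *Fdft1* to the right and *Lcat*, *Srebf1* and *Dhcr7* to the left, and it includes 0 for 29.

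Of the 7 enzymes from acetyl-CoA to farnesyl diphosphate none passed an unadjusted p of 0.05, and their median log2 fold change was -0.04 (0.02 without corticosterone library 7, and -0.0025 with 1 surrogate variable, a term for unlabelled variation between libraries). *Acat2*, the thiolase that joins 2 molecules of acetyl-CoA in the cytosol, and *Hmgcs1* had log2 fold changes of -0.02 and -0.0078. The 95% interval of *Hmgcs1* ran from -0.16 to 0.15, so that larger changes lie outside it in this fit. Over the alternatives the log2 fold change of *Hmgcs1* ran from -0.14 to 0.03. The phosphorylation and decarboxylation steps after mevalonate are carried out by *Mvk*, *Pmvk* and *Mvd*, whose log2 fold changes were -0.19, -0.14 and -0.04, the last of which turned to 0.08 with 1 surrogate variable and 0.11 with the trend of GC content and length removed. *Idi1*, which isomerizes the resulting isoprene unit, had -0.05 with an interval of -0.41 to 0.32. Over the alternatives the log2 fold change of *Pmvk* ran from -0.20 to -0.0081.

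*Mvk*, mevalonate kinase, was the lowest of these enzymes in fold change. Its normalized counts were 332, 408.5, 373 and 296 in libraries 1 to 4 (vehicle) and 426, 287.5, 250.1 and 272 in libraries 5 to 8 (corticosterone). The groups overlapped because library 5 had the highest value of all, whereas the other 3 corticosterone libraries lay below every vehicle library (adjusted p = 0.660 in edgeR). The log2 fold change of *Mvk* was -0.39 without library 5 and 0.064 with 1 surrogate variable. *Fdps* had the highest fold change of this list (log2 0.13, 95% interval -0.54 to 0.81), with 21.6, 28.4, 23.5 and 12.8 normalized counts after vehicle and 31.2, 28.2, 13.7 and 21.4 after corticosterone. Both groups of *Fdps* held low and high values, and no difference was detectable at this depth.

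The 11 enzymes from squalene to cholesterol had a median log2 fold change of 0.03, with 6 positive and 5 negative values. The median was -0.02 with 1 surrogate variable and -0.04 with the trend removed. *Fdft1* (ENSMUSG00000021273, chr14:63145150-63179578, minus strand), squalene synthase, catalyzes the step that commits farnesyl diphosphate to sterols. It had 1709.9, 1702, 1679 and 1775 normalized counts after vehicle and 2014, 2048, 1896 and 1907 after corticosterone. Every corticosterone library lay above every vehicle library, and the spread within each group was small (SD 41.3 and 76.3). The ratio of the groups was 1.15 (log2 fold change 0.20 ± 0.06, SE). This did not pass the adjusted test in edgeR (p = 0.00779, adjusted p = 0.451), and the exact permutation test over the 70 assignments gave 0.0286, the smallest value that 4 against 4 allows. *Fdft1* shares 18.3% of its exon bases with *Ctsb* on the opposite strand, and the strand setting of the counting is not given in the sources used here. *Ctsb*, which encodes a lysosomal protease, had a log2 fold change of -0.05.

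*Dhcr7* (ENSMUSG00000058454, chr7:143823145-143848410, plus strand), the reductase of the last step to cholesterol, went the other way. Its normalized counts were 810.2, 735, 748 and 743 after vehicle and 746, 663, 649.5 and 572 after corticosterone. Library 5 lay among the vehicle values, and the other 3 corticosterone libraries lay below all of them (log2 fold change -0.21 ± 0.09, adjusted p = 0.545 in edgeR). The other enzymes of the list did not pass an unadjusted p of 0.05. Positive log2 fold changes were found for *Nsdhl* (0.10), *Cyp51* (0.08), *Hsd17b7* (0.05), *Msmo1* (0.04) and *Lss* (0.03), of which *Lss* closes the sterol rings and the others take part in removing methyl groups of lanosterol. Of these, *Nsdhl*, *Hsd17b7* and *Msmo1* turned negative with 1 surrogate variable, and *Hsd17b7*, *Msmo1* and *Lss* with the trend removed. Negative values were found for *Sc5d* (-0.01), *Ebp* (-0.05), *Sqle* (-0.11) and *Tm7sf2* (-0.20). Over the alternatives *Sc5d* ran from -0.17 to 0.0031. *Sqle* is the epoxidase in front of *Lss*, *Tm7sf2* is a sterol reductase, and *Ebp* and *Sc5d* set the double bonds of the ring. *Tm7sf2* shares 12.1% of its exon bases with *Vps51* on the same strand, which had a log2 fold change of -0.23, and its own value is uncertain for that reason.

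In the SREBP system, the log2 fold changes of the transcription factors were negative, but their size depended on the setting. With 1 surrogate variable they were -0.08 for *Srebf1* and -0.04 for *Srebf2*, and with the trend of GC content and length removed -0.15 and -0.09. Those of the escort *Scap* (-0.16) and of the retention factor *Insig2* (0.03) changed sign with 1 surrogate variable (0.03 and -0.05) and with the trend removed (0.0022 and -0.04). The median of the 5 genes was -0.16, and it was -0.27 without library 5 and -0.04 both with 1 surrogate variable and with the trend removed. *Srebf1* (ENSMUSG00000020538, chr11:60199089-60222581, minus strand), which mainly drives fatty acid genes, had 804, 993, 912 and 708 normalized counts after vehicle and 868.5, 617, 706 and 602 after corticosterone. The groups overlapped at library 5, which fell among the vehicle values, and the corticosterone libraries 6 to 8 lay below every vehicle library (log2 fold change -0.29 ± 0.13, adjusted p = 0.545 in edgeR, exact permutation p = 0.114). *Srebf2*, which mainly drives the cholesterol genes, had 4079, 4169, 4661 and 3774 normalized counts after vehicle and 4466, 3192, 3445 and 3282 after corticosterone. *Scap* had 1957, 2245, 2232 and 1788 after vehicle and 2264, 1731, 1722.5 and 1665 after corticosterone. In both genes the corticosterone libraries 6 to 8 lay below every vehicle library and library 5 did not, with log2 fold changes of -0.21 and -0.16 and 95% intervals that reached 0.01 and 0.08.

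*Insig1* is itself a target of SREBP and the member of the system with the highest fold change. It had 975, 1040.2, 832 and 854 normalized counts after vehicle and 898, 995, 1025 and 915 after corticosterone. The groups were interleaved, and the log2 fold change was 0.05 with an interval of -0.14 to 0.24. The interval of *Insig2* ran from -0.14 to 0.19.

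The 8 genes of LXR signaling and efflux held both the highest and the lowest fold change of all members, and their median was -0.12. This median was 0.037 with 1 surrogate variable and -0.03 with the trend of GC content and length removed. *Abca1* (ENSMUSG00000015243, chr4:53030787-53159895, minus strand) is the transporter that passes cholesterol to lipid-poor apolipoproteins. It had 836, 691, 667 and 769 normalized counts after vehicle and 964, 1127, 1094 and 928 after corticosterone. All corticosterone libraries lay above all vehicle libraries, library 5 included. The mean was 741 ± 77.0 (SD, n = 4) after vehicle and 1028 ± 97.3 after corticosterone, a ratio of 1.39 (log2 fold change 0.47 ± 0.09, SE, 95% interval 0.27 to 0.68). *Abca1* did not pass in the edgeR test (p = 0.000233, adjusted p = 0.196), and the exact permutation test gave 0.0286, the smallest value possible. In DESeq2 it was the one member that passed (adjusted p = 0.00682, with 0.374% of all genes past the threshold), and without a filter on low counts in edgeR it passed as well (adjusted p = 0.00986, 0.287% of all genes). Over the planned and added alternatives its adjusted p ranged from 0.00682 to 0.597, and its fold change from 0.40 to 0.53 on the log2 scale.

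*Lcat* (ENSMUSG00000035237, chr8:105939551-105943382, minus strand), the enzyme that esterifies cholesterol on lipoproteins, had the lowest fold change of the 34 genes. It had 735, 717, 736 and 666 normalized counts after vehicle and 688, 535, 552 and 493 after corticosterone. Library 5 lay above vehicle library 4, and the other 3 corticosterone libraries lay below all vehicle libraries. The means were 713 ± 32.5 and 567 ± 84.5, a ratio of 0.795 (log2 fold change -0.33 ± 0.10, adjusted p = 0.439 in edgeR, exact permutation p = 0.0571). With 1 surrogate variable the log2 fold change was -0.20.

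*Apoe* (ENSMUSG00000002985, chr7:19696109-19699188, minus strand) is the ligand through which astrocytes hand cholesterol to other cells. It had 23518, 28557.5, 26032 and 19388 normalized counts after vehicle and 29427, 18675, 17775 and 17886 after corticosterone. Library 5 held the highest value of all 8 libraries and the other 3 corticosterone libraries the lowest values, so that the log2 fold change of -0.22 had an interval of -0.56 to 0.12. It was -0.43 without library 5, 0.065 with 1 surrogate variable and -0.07 with the trend removed. *Abcg1*, which works after *Abca1* in loading lipoproteins, had a log2 fold change of -0.15 (95% interval -0.31 to 0.0099), opposite in sign to that of *Abca1*. With 1 surrogate variable that of *Abcg1* was -0.08. The receptors themselves had -0.16 for *Nr1h2* and 0.09 for *Nr1h3*, the latter on 29 to 47 reads per library. *Mylip*, a ubiquitin ligase that LXR induces to degrade lipoprotein receptors, had -0.08, and *Cyp46a1* had -0.03. *Nr1h2* and *Cyp46a1* turned positive with 1 surrogate variable (0.0082 and 0.13) and with the trend removed (0.02 and 0.11). In these bulk samples, fewer cells of a type and less RNA per cell cannot be told apart.

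**Figure D3:**
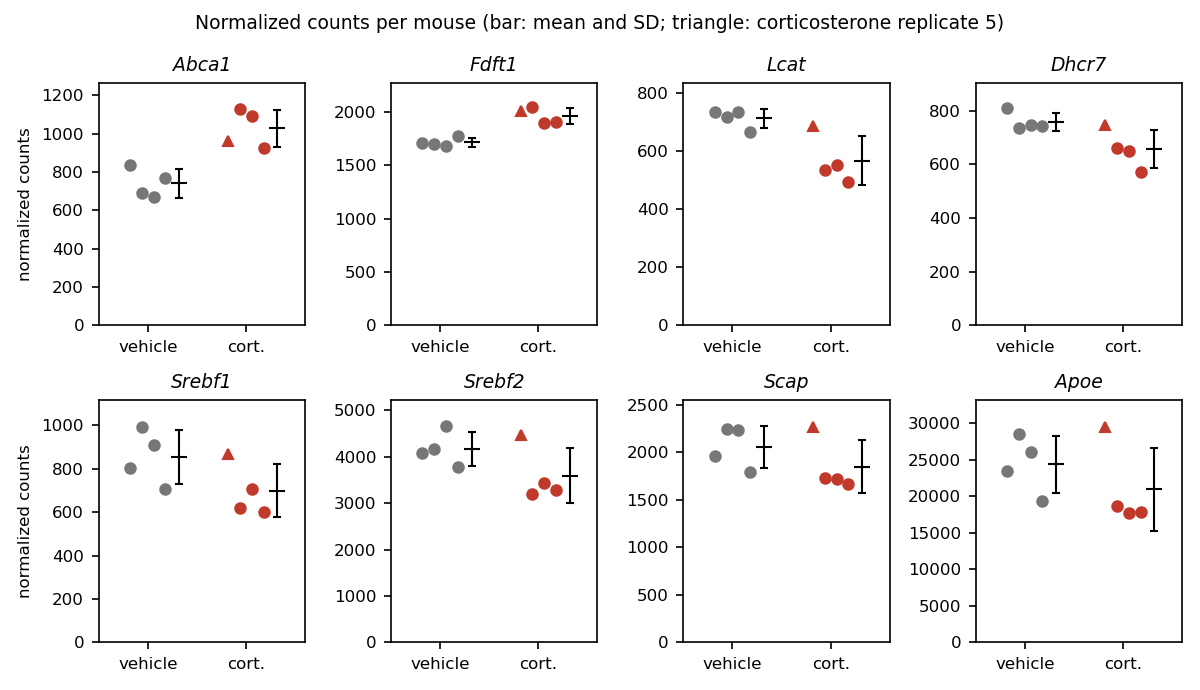
Normalized counts of 8 members in each mouse (points), with the mean and SD of each group (bar), and corticosterone library 5 drawn as a triangle. For *Abca1* and *Fdft1* every corticosterone point lies above every vehicle point, and for the other 6 genes the triangle lies within or above the vehicle points while the other 3 corticosterone points lie below them.

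The carriers within the cell had log2 fold changes close to 0. *Npc1* and *Npc2* pass cholesterol out of the lysosome and had 0.05 and -0.09. *Npc2* had 1145, 1180.3, 984 and 894 normalized counts after vehicle and 1103, 981, 894 and 958 after corticosterone, with full overlap. *Stard4*, a soluble carrier between membranes, had 394, 361, 350.2 and 409.7 after vehicle and 373, 432, 372 and 429 after corticosterone, which also overlapped (log2 fold change 0.08, 95% interval -0.12 to 0.29). With 1 surrogate variable *Npc2* was at 0.012 and *Stard4* at -0.0041, and with the trend removed *Npc1* was at -0.02.

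The split within the corticosterone group ran through many members at once. Without library 5, 14 members had an unadjusted p under 0.05 in edgeR, 2 higher and 12 lower. Over all genes the share was 29.0% (13.4% higher and 15.6% lower). In the same fit 7 members passed the adjusted p value (20.6%), where 10.2% of all genes tested passed. *Abca1* rose (log2 fold change 0.50, adjusted p = 0.0134), and the 6 others fell: *Lcat* by 0.44, *Apoe* by 0.43, *Srebf1* by 0.41, *Srebf2* by 0.34, *Dhcr7* by 0.27 and *Scap* by 0.27 on the log2 scale, with adjusted p values from 0.0128 (*Lcat*) to 0.0485 (*Scap*). Of the synthesis enzymes, *Dhcr7* was the one that passed, and the adjusted p value was 0.0653 for *Fdft1* and 0.0501 for *Mvk*. In this comparison of 4 against 3 libraries, 3 members were higher without overlap (*Abca1*, *Fdft1* and *Nsdhl*, beside 12% of all genes) and 10 were lower (*Abcg1*, *Apoe*, *Dhcr7*, *Lcat*, *Mvk*, *Scap*, *Sqle*, *Srebf1*, *Srebf2* and *Tm7sf2*, beside 12.3% of all genes).

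**Figure D4:**
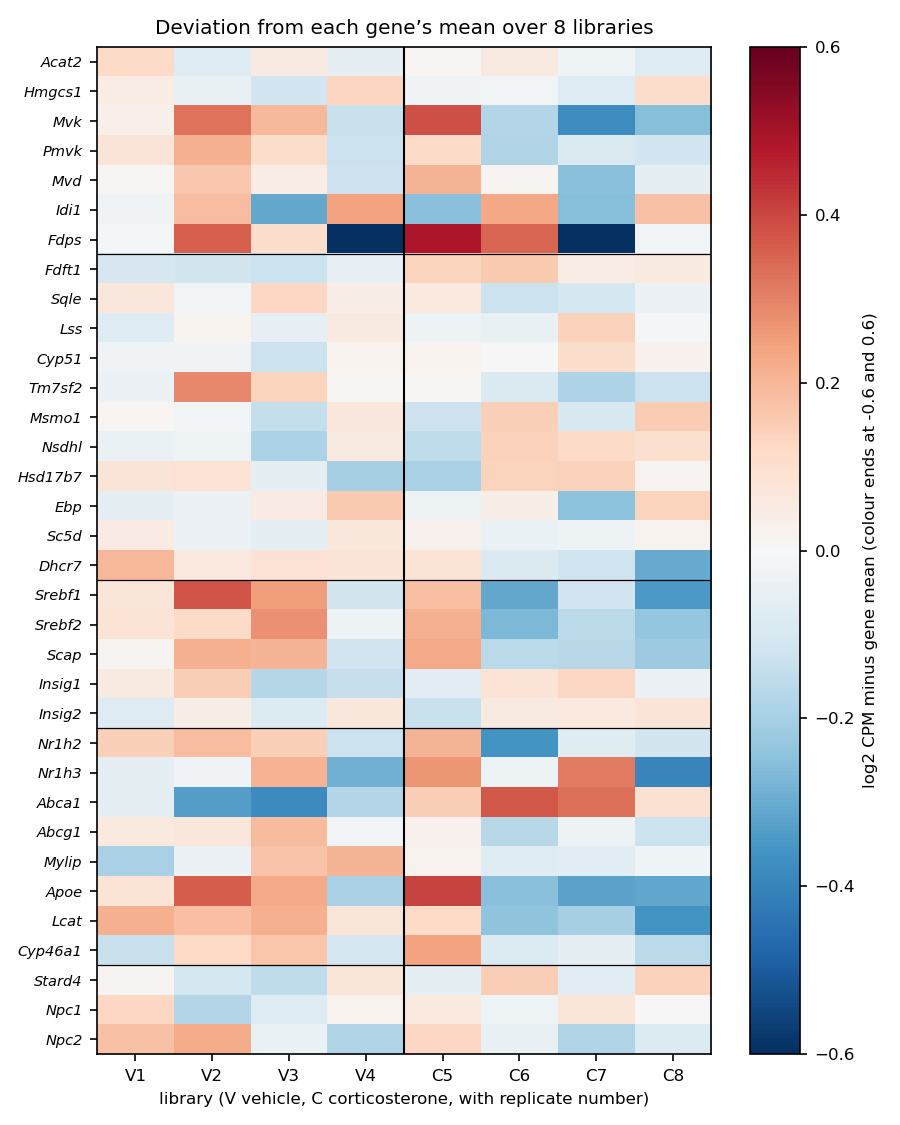
Deviation of each member (rows, by role) from its own mean over the 8 libraries (columns) in log2 CPM, red above and blue below the mean. Columns C6 to C8 are blue for *Srebf1*, *Srebf2*, *Scap*, *Apoe* and *Lcat* and red for *Abca1*, while column C5 is red for all 6 genes, as are columns V1 to V3 for the former 5 genes. Column V4 is blue for *Srebf1*, *Srebf2*, *Scap* and *Apoe* and red for *Lcat*.

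Library 5 differed from the other corticosterone libraries along the GC content of the members. The GC content of the longest annotated transcript ran from 41.9% in *Idi1* to 60.6% in *Nr1h2*. The difference between library 5 and the mean of the other 3 corticosterone libraries was above 0 in 11 of the 11 members with a GC content of at least 55%, with a median of 0.39 on the log2 scale, and in 11 of the 23 members below 55%, with a median of -0.0057. Across the 34 genes this difference and the GC content had a Pearson r of 0.838 and a Spearman rho of 0.847, as a description only, since all points share the same libraries. Genes outside the members differed as well. *Abca7* (58.9% GC) was at 0.79 and *Ggps1* (40.1%) at -0.47, while *Pnpla3* (58.4%) was at -0.05. The difference was not compared with GC content over all genes, so it cannot be called particular to the members. The GC content also went with the log2 fold change between the groups (r = -0.526, rho = -0.589): its median was -0.16 in the 11 members with a high GC content, among them *Srebf1*, *Srebf2*, *Scap*, *Apoe*, *Lcat* and *Mvk*, and 0.03 in the other 23. Without library 5 these medians were -0.27 and 0.03. *Abca1* (47.5%) and *Fdft1* (51.8%) belong to the latter. The share of reads that the counting set aside as ambiguous was 1.48% in library 5, 1.25 to 1.28% in the other corticosterone libraries and 1.40 to 1.67% in the vehicle libraries. The part of these properties of the libraries in the fold changes was not tested beyond the settings given next.

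**Figure D5:**
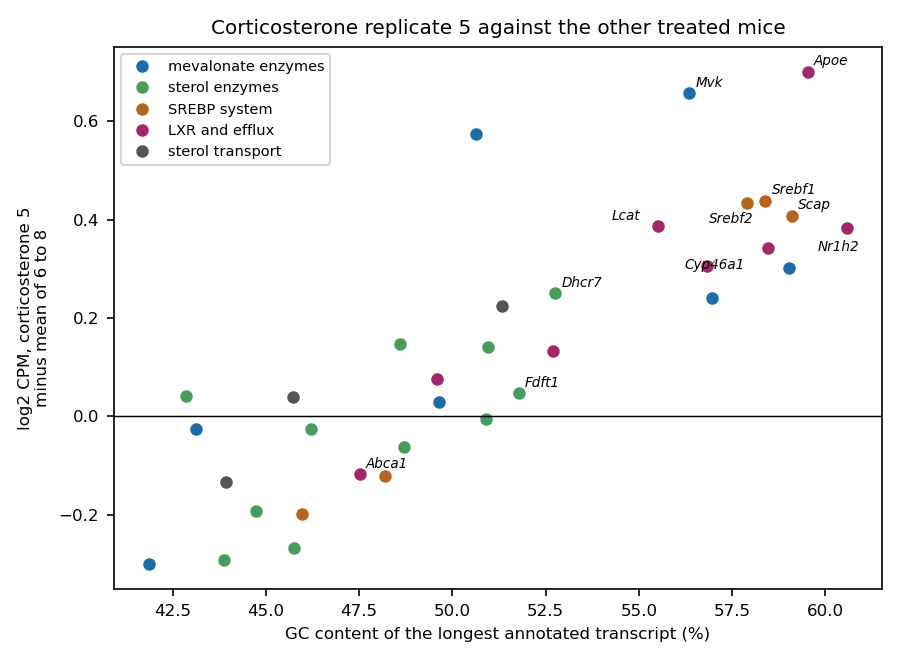
Difference in log2 CPM between corticosterone library 5 and the mean of libraries 6 to 8 (vertical axis) against the GC content of the longest annotated transcript (horizontal axis, %) for the 34 members, colored by role. The 11 points at a GC content of 55% or more all lie above 0, with *Apoe* and *Mvk* at the top, and the points below 55% lie on both sides of 0.

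With the trend of each library along GC content and transcript length removed, a setting added after the data were seen, 0 members passed in edgeR beside 0.131% of all genes. The log2 fold changes were then 0.40 for *Abca1* (adjusted p = 0.0685), 0.22 for *Fdft1* (adjusted p = 0.108) and -0.25 for *Lcat* (adjusted p = 0.158). With library 5 left out as well, 2 members passed beside 1.3% of all genes: *Abca1* rose (0.41, adjusted p = 0.0380) and *Lcat* fell (-0.30, adjusted p = 0.0459). At an unadjusted p under 0.05 there were then 13 members, 2 higher and 11 lower. Over all genes the share was 16.3% (6.93% higher and 9.36% lower). In that setting the log2 fold change of *Apoe* was -0.15 (adjusted p = 0.215), that of *Srebf1* was -0.17 (adjusted p = 0.284), that of *Srebf2* was -0.12 and that of *Scap* was -0.0067. *Dhcr7*, which also no longer passed, had -0.21 (adjusted p = 0.169), against -0.27 before the trend was removed.

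Marker sums of other cell types moved with the groups in part. The 5 microglial markers summed to between 6438 and 6680 normalized counts after vehicle and between 5105 and 6281 after corticosterone, without overlap, and the 4 endothelial markers to 1752 to 1846 and 1449 to 1647, also without overlap. The 8 oligodendrocyte markers all had negative fold changes, 3 of them at an unadjusted p under 0.05, with sums of 61649 to 108714 and 60381 to 74736. The 7 astrocyte markers summed to 83370 to 98829 and 86318 to 93033, and overlapped, while 1 of them, *Gja1*, was lower without overlap (log2 fold change -0.15, adjusted p = 0.545 in edgeR). Of the choroid plexus markers, 5 of 6 were tested and 4 had positive fold changes, 2 of them at an unadjusted p under 0.05 (*Clic6* at 1.16 and *Otx2* at 1.04 on the log2 scale). Their sums, 412 to 1296 and 613 to 1366, overlapped, and the sixth, *Folr1*, had 0 to 14 reads. The 5 erythrocyte genes all had negative fold changes (median -0.53, sums of 1591 to 5045 and 1545 to 2013), 1 of them at an unadjusted p under 0.05. *C1ql2*, a gene of dentate granule cells, had a log2 fold change of -0.42 and was lower without overlap, while *Prox1*, another marker of these cells, had 0.01, 3 of the 7 hippocampal markers were positive, and their sums overlapped (15118 to 17549 and 13918 to 15719). The 6 neuronal markers summed to 116124 to 130508 and 118632 to 125515. Of these, 4 had positive and 2 negative fold changes, and *Rbfox3* (-0.19) was at an unadjusted p under 0.05. *Folr1* was the only marker at 0 in any library, and the part of these cell types in the fold changes of the members was not tested.

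The set of RefSeq promoters used here covered 28 of the 34 members, and CCAAT was the motif found most often among them. The element TCACNCCAC lay in the promoter of 1 of 15 synthesis enzymes, *Hmgcs1*, with its first base at position -137 from the start, and in 1.44% of the 27025 genes with a promoter. The core of the LXR element DR4 (GGTCA and AGGTCA with 4 bases between them) and a glucocorticoid response element (AGAACA and TGTTCT with 3 bases between them) were found in no member, and in 0.0222% and 0.0111% of all genes. CCAAT was present in 14 of 15 synthesis enzymes and 22 of 28 members, beside 41.1% of all genes, and *Mvk* held 5 copies in the bases searched. The loose form of DR4, chosen after the data were seen, was present in *Abca1*, as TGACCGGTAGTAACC read along the gene, and in *Srebf1*, as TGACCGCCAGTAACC, and in 0.226% of all genes. Because of that choice, the share is a description and no test of enrichment. The log2 fold changes of *Abca1* and *Srebf1* had opposite signs (0.47 and -0.29). The windows searched ran from 250 bases before to 50 bases after the start on both strands, and each motif was counted without regard to overlap with each other.

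Other genes of the pathway were counted for comparison. Of 33 further genes of sterol uptake, storage and transport, 32 were tested and 0 passed in edgeR, with 8 positive and 24 negative log2 fold changes. At an unadjusted p under 0.05, 3 were lower and 0 higher, where 4.52% of all genes tested were lower. Among these were *Abcg4*, a sterol transporter related to *Abcg1* (-0.24, 1734 to 1873 against 1437 to 1724 normalized counts, without overlap), and *Stard3*, a sterol carrier of late endosomes (-0.18). Of 13 further lipid genes that SREBP regulates, 0 passed, and *Ggps1*, which makes geranylgeranyl diphosphate from the farnesyl diphosphate of the same pathway, had a log2 fold change of 0.27 at an unadjusted p of 0.0369 (adjusted p = 0.545). Its groups overlapped through library 5 (706 normalized counts), the lowest of all 8.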

How the data were processed

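Ventral hippocampi of 8 mice were sequenced. The authors made stranded mRNA libraries, aligned paired reads of 100 bases to the mouse genome (mm10) with GSnap, counted them with HTSeq-count and deposited raw counts per gene, which are whole numbers without normalization. The annotation release and the strand setting of the counting are not given in the sources used here. All 8 columns of counts were mapped to the groups by the sample titles, and 0 columns were left out. Reads assigned to no gene (13.7 to 15.4% of the reads listed per library) were left out of library sizes and tests.

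Symbols, exon lengths and GC content came from GENCODE M21 (GRCm38), in which 50462 of 50686 identifiers were found. Of the 27483 genes with at least 1 read, 16018 passed filterByExpr. Counts were normalized with TMM and tested with the quasi-likelihood test of edgeR 4.0.16 under R 4.3.3, with Benjamini-Hochberg adjustment over all genes tested and a threshold of 0.05. Normalized counts are scaled to the mean effective library size, and a prior count of 2 entered log2 CPM. An exact two-sided permutation test over the 70 assignments was run on single genes. The biological coefficient of variation was 0.111, and the p values measure the spread between mice of a single experiment. The scripts were tested on simulated data.

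Alternatives were DESeq2 1.42.0, edgeR with the size factors of DESeq2 or with upper-quartile factors, no filter, at least 10 counts in every library, limma-voom (limma 3.58.1), robust dispersion, 1 surrogate variable (sva 3.50.0), a threshold of 0.1, the length of the longest transcript, and each library left out in turn. A fit with the dependence on GC content and length taken out per library (splines with 5 degrees of freedom), with and without library 5, the division of members at a GC content of 55% and the loose DR4 motif were added after the data were seen. Values in every mouse were given for members at an unadjusted p under 0.05 or without overlap, for the members of highest and lowest fold change in each role, and for the highest and lowest level. *Srebf2* and *Scap* were shown in addition, after their values were seen. The members and lists were chosen with earlier results of these data known. Promoters came from the RefSeq table of GRCm38.p6. Some single genes of the further lists are counted but not reported here. The promoters used here did not cover *Fdps*, *Fdft1*, *Sqle*, *Abcg1*, *Stard4* and *Npc1*, and these were not searched.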

Additional observations from a re-analysis of the deposited data

Results flagged for a closer look

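Within the groups of 4, the highest or lowest value stood apart from the nearest other by more than Dixon's 95% limit in 6 of the 68 sets of values (34 genes in each group), and chance alone flags about 1 in 20 such sets, or 3.4 here. Library 5 of the corticosterone group held 4 of the 6: *Apoe* at 29427 normalized counts (17775 to 18675 in the other corticosterone libraries), *Scap* at 2264 (1665 to 1731), *Nsdhl* at 535 (635 to 654) and *Insig2* at 850.0 (969 to 985). The value of *Lss* in corticosterone library 7 was 703, where the other libraries of the group had 619 to 633. The value of *Nr1h2* in vehicle library 4 was 684, where the other vehicle libraries had 827 to 851.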

How the results depend on the processing

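The count of members that passed the adjusted p value was 0 and became 1 with DESeq2, 1 without a filter on low counts, 0 to 7 with each library left out in turn, and 2 with the trend of GC content and length removed and corticosterone library 5 left out. The value of 7 came from leaving out corticosterone library 5, and each other library left out gave 0. The count of members at an unadjusted p under 0.05 was 5, ranged from 3 (without vehicle library 3, or corticosterone library 6, 7 or 8) to 14 (without corticosterone library 5) when libraries were left out, and was 13 with the trend removed and library 5 left out. Over all genes the share was 4.69 to 5.76% in the settings with 3 members, 15.3% without vehicle library 4 (7 members) and 29.0% without corticosterone library 5. The count of members without overlap was 2 and ranged from 2 to 13 when libraries were left out, with 5 without vehicle library 4 (9.16% of all genes) and 13 without corticosterone library 5 (24.3%). With 1 surrogate variable the median log2 fold change of the LXR and efflux genes was 0.037, and 12 members changed sign: *Apoe* (0.065), *Mvk* (0.064), *Npc2* (0.012), *Stard4* (-0.0041), *Scap*, *Nr1h2*, *Cyp46a1*, *Mvd*, *Insig2*, *Nsdhl*, *Msmo1* and *Hsd17b7*. With the trend removed, 9 members changed sign (*Scap*, *Nr1h2*, *Cyp46a1*, *Mvd*, *Insig2*, *Msmo1*, *Hsd17b7*, *Lss* and *Npc1*), and with library 5 left out as well 11 did, among them *Stard4* (-0.016) and *Fdps* (-0.026). Leaving out libraries gave log2 fold changes of -0.055 to 0.317 for *Fdps* and -0.0013 to 0.111 for *Insig1*. The cause of these shifts was not tested. Of the 34 members, 11 kept the sign of the fold change under all 18 alternatives that refitted the table, and these were *Abca1*, *Fdft1*, *Sqle*, *Dhcr7*, *Tm7sf2*, *Pmvk*, *Srebf1*, *Srebf2*, *Abcg1*, *Mylip* and *Lcat*. A kept sign did not mean a kept size, since *Pmvk* came as near to 0 as -0.0081, *Mylip* -0.029 and *Srebf2* -0.040. With the length of the longest transcript, the vehicle level of *Apoe* was 17311 and that of *Fdps* 7.31 per kilobase. The members with the fewest reads, *Fdps* (13 to 32 per library) and *Nr1h3* (29 to 47), had the widest 95% intervals, -0.54 to 0.81 and -0.38 to 0.57. No paired analysis was possible because the groups share no replicate number.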
